A study of Papio hamadryas with 72 samples.

Results

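The genes described here build, coat and empty the lipid droplet. They are the droplet coat genes PLIN2, PLIN3 and PLIN5, the triglyceride synthesis genes DGAT1 and DGAT2, the lipase genes PNPLA2, PNPLA3 and MGLL, and the lipase inhibitor gene G0S2. The 9 genes were found by symbol in the probe annotation of the series, which names 16828 genes, and 13 probes carried those symbols. Each gene was followed through its brightest detected probe, and 7 of the 9 genes were measured in at least 1 tissue.

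Fat is stored in cells as triglyceride inside droplets that are bounded by a single layer of phospholipid and a coat of proteins. DGAT1 and DGAT2 add the last fatty acid to make triglyceride, PNPLA2 (adipose triglyceride lipase) takes the first one off again, hormone-sensitive lipase (LIPE) takes the next and MGLL the last. G0S2 blocks PNPLA2, ABHD5 activates it, and the perilipins of the coat decide how far lipases reach the fat. PLIN2 is the usual coat protein of the droplets of liver and is protected from degradation by being bound to them, PLIN5 is best known from heart, muscle and liver where droplets touch mitochondria, and PNPLA3 is known from human liver for a variant that goes with stored fat.

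The animals were 12 juvenile baboons (Papio hamadryas) aged 4.5 years. One set of mothers had been given less feed while pregnant and while nursing (MUN, 6 offspring), and the mothers of the control offspring had been fed freely (CON, 6 offspring), with 3 females and 3 males in each group. Biopsies of liver, of vastus lateralis muscle and of omental adipose came from the same animals after 7 weeks of a high-fat diet with a high-fructose drink (HFCS) and before it, on chow. The 4 groups of a tissue were therefore MUN on HFCS, MUN on chow, CON on HFCS and CON on chow, with 6 animals and 6 arrays each. Every animal went on to HFCS, and effects of the diet, of 7 weeks of growth and of the earlier biopsy cannot be told apart.

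Signals came from 72 Illumina human bead arrays, 24 for each tissue. Levels are log2 signals, and a human probe can read a baboon transcript weakly, so levels were compared between samples and never between genes. Of the 72 arrays 68 matched their tissue and are called in-line here, with 9774 to 14438 probes detected and, against the other arrays of that tissue, a median correlation between 0.92 and 0.97. The 4 others had 3179 to 10136 probes detected and a median correlation of -0.005 to 0.69. They were the liver arrays of MUN male replicate 4 on HFCS and on chow and of MUN male replicate 6 on chow, and the muscle array of CON male replicate 5 on chow. Values are those of all arrays unless they are said to leave out these 4. Among the in-line arrays each tissue had the markers of its label, and 1 muscle array read hepatocyte markers as well. All 8 hepatocyte markers were measured in liver, where their mean level lay between 12.65 and 13.09, 7 of 8 myofiber markers in muscle (13.61 to 14.13) and 8 of 9 adipocyte markers in adipose (8.90 to 9.86). Myofiber markers passed the detection filter for 0 of 8 genes in liver. ADIPOQ, the adiponectin gene, was dim in adipose with a level of 7.06 to 7.92. The muscle array of CON female replicate 1 on chow was an in-line array but read ALB, the hepatocyte gene for albumin, at 14.32, against 6.87 to 7.54 on the other in-line muscle arrays, and APOA1, the other hepatocyte marker measured in muscle, at 12.09. The mean of these 2 markers was 11.32 on the muscle array that was out of line. In bulk tissue, fewer cells of a type and less RNA per cell cannot be told apart.

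PLIN2, PLIN5, PNPLA2, DGAT1 and MGLL were measured in all 3 tissues, DGAT2 in liver and adipose and PNPLA3 in muscle. The probes used for these genes other than DGAT2 and PNPLA3 were above background on 19 to 24 of 24 arrays of each tissue. The other probes of PLIN2, PLIN5 and MGLL were not. The second PLIN2 probe was detected on 3 adipose, 9 liver and 1 muscle arrays. The remaining probes of PLIN5 and MGLL were each detected on 1 liver array and on 0 arrays of muscle and adipose. The levels of PLIN2, PLIN5 and MGLL and their order among tissues therefore rest on 1 probe each. DGAT2 was above background on 24 of 24 adipose arrays, 22 of 24 liver arrays and 0 of 24 muscle arrays. PNPLA3 was detected on 6 of 24 muscle arrays, just enough to be measured there, on 3 adipose arrays and on 1 liver array. The probes of PLIN3, a coat protein that moves to new droplets from the cytosol, and of G0S2 were at background throughout. PLIN3 was detected on 2 liver arrays, 3 muscle arrays and 2 adipose arrays, with linear signals between 86.9 and 252 over all arrays. G0S2 was detected on 1 array, a muscle array, with signals of 76.1 to 122.9 in liver, 84.6 to 242 in muscle and 96.3 to 177 in adipose. For PLIN3, G0S2, liver and adipose PNPLA3 and muscle DGAT2 the arrays give no more than a level that was not well above background.

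The clearest differences of the measured genes lay between the tissues. Adipose had far more PNPLA2 signal than liver or muscle, liver had the most PLIN2 signal, and the means of the remaining genes were highest in adipose, apart from PNPLA3, which differed by less than the fold needed for a call. For these comparisons the 72 arrays were normalized together, the animal was a random block in limma, and a call needed an adjusted p (Benjamini-Hochberg) under 0.05 with a fold of at least 1.2. Between adipose and liver 6 of the 7 genes measured in at least 1 tissue were called, between adipose and muscle 5 of 7, and between liver and muscle 3 of 7. The counts against muscle include DGAT2, which was at background in muscle and passed the detection filter only in the other tissues. PNPLA3, which was not called, passed it only in muscle. The tissues differed in many genes of all kinds, and 49.1%, 39.8% and 53% of all 10966 genes were called in those 3 comparisons. Without the 4 arrays out of line the counts were 6, 6 and 4 of 7, beside 51.7%, 41.7% and 55.1% of all genes.

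**Figure D1:**
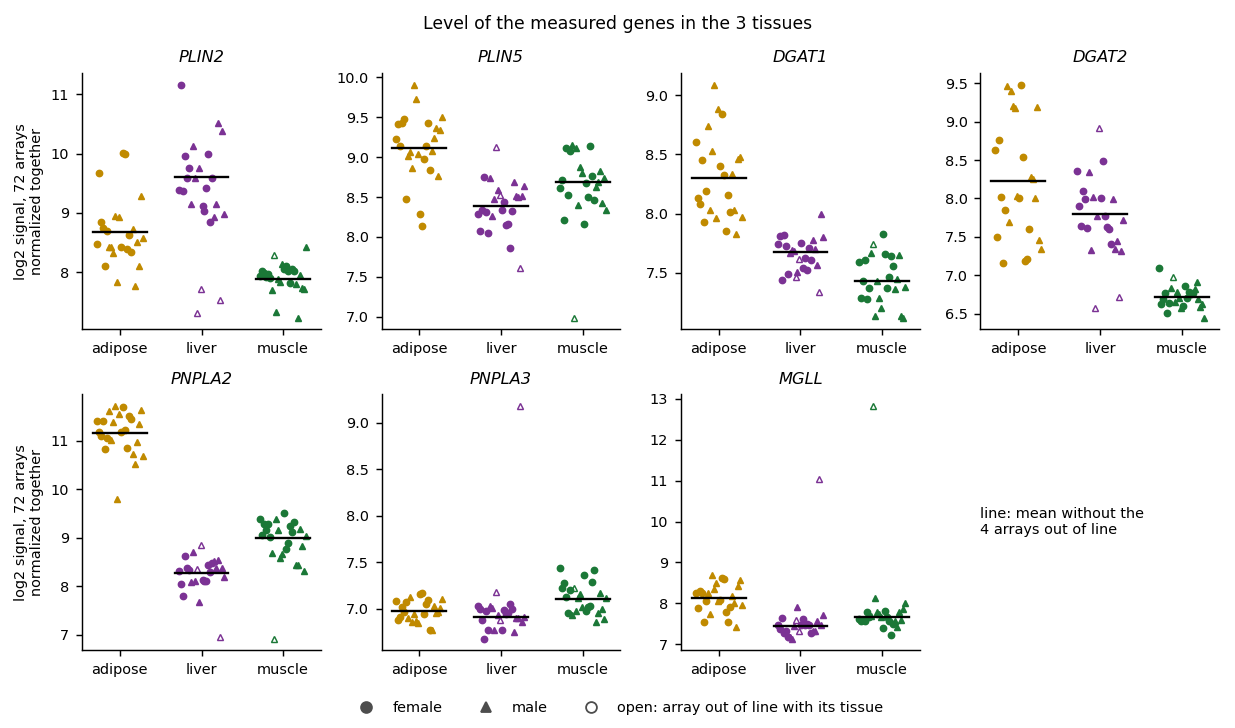
Level of each measured gene (log2 signal, 72 arrays normalized together) on the arrays of adipose, liver and muscle, with 1 point for each array. Colours stand for the tissue, symbols for females and males, and open symbols for the arrays out of line. The PNPLA2 points of adipose lie above those of liver and muscle, and the PLIN2 points of liver lie above those of muscle apart from arrays out of line.

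PLIN2 averaged 8.67 ± 0.58 in adipose (SD, n = 24 arrays of 12 animals), 9.61 ± 0.59 in liver (n = 21 in-line arrays) and 7.89 ± 0.25 in muscle (n = 23 in-line arrays). Its liver levels did not overlap with its muscle levels among in-line arrays, and all 11 animals with in-line arrays had more in liver than in muscle. The liver minus muscle difference was 1.44 log2 units (SE 0.18, 2.71-fold, adjusted p = 1.8e-10 from limma) with all arrays and 1.73 without the arrays out of line. Adipose lay between, with an adipose minus liver difference of -0.68 (SE 0.18, adjusted p = 0.00081) and an adipose minus muscle difference of 0.76 (SE 0.18, adjusted p = 0.00023), and its range overlapped with that of either tissue. PLIN5 had another order. Its levels averaged 9.12 ± 0.42 in adipose, 8.38 ± 0.24 in liver and 8.69 ± 0.29 in muscle over in-line arrays, and it was higher in adipose than in liver in 12 of 12 animals and than in muscle in 11 of 12. The PLIN5 difference was 0.73 between adipose and liver (SE 0.11, adjusted p = 4.3e-08) and 0.50 between adipose and muscle (SE 0.11, adjusted p = 0.00011). Between liver and muscle, PLIN5 differed by -0.23 (SE 0.11, adjusted p = 0.056) with all arrays, which is no call, and by -0.32 (adjusted p = 0.0021) without the arrays out of line, which is one.

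Of the synthesis genes, DGAT2 showed the wider differences. Its levels averaged 8.23 ± 0.78 in adipose and 7.80 ± 0.35 in liver over in-line arrays. In muscle it was not well above background on any array, so the fold against muscle is a bound, the mean of the brighter tissue against the lowest signal that counts as detected on each muscle array. By these bounds DGAT2 was at least 1.86-fold higher in adipose than in muscle and at least 1.33-fold higher in liver than in muscle. The bounds themselves were not tested. The limma comparisons with muscle used its background readings of DGAT2 (adjusted p = 1e-13 for adipose and 1.1e-08 for liver), so these p-values do not belong to the bounds. The adipose minus liver difference of DGAT2 was 0.48 (SE 0.15, adjusted p = 0.004) and was seen in 9 of 12 animals. That call rested on 1 animal, since it was 0.25 (adjusted p = 0.072) without MUN replicate 4. DGAT1, whose enzyme sits in the endoplasmic reticulum, averaged 8.31 ± 0.35 in adipose, 7.68 ± 0.14 in liver and 7.43 ± 0.19 in muscle. DGAT1 was higher in adipose than in either other tissue in 12 of 12 animals, by 0.66 against liver (SE 0.07, adjusted p = 3e-12) and by 0.86 against muscle (SE 0.07, adjusted p = 1.4e-16). Its liver minus muscle difference of 0.21 (adjusted p = 0.0094) was in the same direction in 12 of 12 animals but lay under the fold needed for a call.

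Among the lipase genes PNPLA2 stood out. It averaged 11.16 ± 0.45 in adipose, 8.27 ± 0.26 in liver and 8.99 ± 0.34 in muscle over in-line arrays. Its adipose levels overlapped with neither of the other tissues and were the higher ones in 12 of 12 animals. The PNPLA2 difference was 2.92 log2 units between adipose and liver (SE 0.14, 7.58-fold, adjusted p = 6.9e-29) and 2.26 between adipose and muscle (SE 0.14, adjusted p = 3.2e-23). Liver had less PNPLA2 than muscle, by -0.66 (SE 0.14, adjusted p = 1.6e-05), in 11 of 12 animals. MGLL, whose enzyme splits off the last fatty acid, averaged 8.12 ± 0.36 in adipose, 7.44 ± 0.19 in liver and 7.66 ± 0.20 in muscle over in-line arrays. The MGLL values depended on the arrays out of line, which read it at up to 12.83. Between adipose and muscle MGLL differed by 0.25 (adjusted p = 0.34) with all arrays and by 0.46 (adjusted p = 2.8e-07) without them. Between adipose and liver it differed by 0.53 (adjusted p = 0.027) with all arrays and by 0.68 (adjusted p = 1.1e-11) without them. PNPLA3 levels lay between 6.68 and 7.44 on the in-line arrays of the 3 tissues, and no difference between tissues reached the fold for a call.

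The other genes of the pathway were taken from lists chosen with earlier results of these data known. Counts of higher and lower genes are counts of called genes, and the rest of a list was not called. Between adipose and liver 49.1% of all genes were called. Between adipose and liver, 4 of 8 measured droplet coat and droplet growth genes were higher in adipose and 2 lower, with a median difference of 0.26 against 0.04 over all genes. CIDEA and CIDEC, which make large droplets, were higher by 5.54 and 2.84, as were PLIN1, the coat protein of the fat cell's droplet, and BSCL2, which acts in droplet assembly, by 0.70. CIDEB, a droplet protein of hepatocytes, and HSD17B13, a droplet enzyme of liver, were lower, by -2.06 and -1.57. Of 11 synthesis genes, 6 were higher in adipose and 2 lower (median 0.35), led by LPIN1, the phosphatidic acid phosphatase, with 4.31 and AGPAT2, the acyltransferase of the second step, with 1.87, whereas ACSL1 and ACSL5, which activate fatty acids, were lower by -0.72 and -0.71. Of 9 further lipases and their partners, 3 were higher (LIPE by 1.78, ABHD5 by 0.73 and PNPLA6 by 0.29) and 4 were lower in adipose, with a median of -0.22. The 4 lower ones were the carboxylesterases CES1 (-2.63) and CES2 (-2.56), the lysosomal lipase LIPA (-0.47) and ABHD6 (-0.31). Of 9 export and uptake genes, 4 were higher and 5 lower (median -1.02). The fatty acid binding protein gene FABP4 and the fatty acid transporter gene CD36 were higher by 6.74 and 2.23. The secreted apolipoproteins APOB and APOC3 were lower by -6.22 and -5.82. Of 17 regulators and lipogenic or oxidative genes, 5 were higher and 4 lower (median 0.16), with the adipocyte regulator PPARG at 3.67 and the fatty acid synthase gene FASN at 2.94, against -1.13 for MLXIPL, which responds to carbohydrate, and -0.52 for PPARA, the regulator of fatty acid oxidation.

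The counts against muscle are also of called genes, beside 39.8% of all genes for adipose against muscle and 53% for liver against muscle. Set against muscle, adipose was higher for 5 and lower for 1 of the 8 coat and growth genes (median 0.46, all genes -0.02), the lower one being FITM1 at -3.20, a droplet gene of muscle. It was higher for 7 and lower for 0 of the 11 synthesis genes (median 0.50), for 4 and 0 of the 9 lipases and partners (0.23), for 2 and 1 of the 9 export and uptake genes (-0.04), and for 7 and 5 of the 17 regulators (0.12). Liver against muscle was higher for 3 and lower for 3 of the coat genes (0.08, all genes -0.03), for 5 and 4 of the synthesis genes (0.03), for 5 and 0 of the lipases (0.34), for 6 and 3 of the export and uptake genes (1.18), and for 6 and 4 of the regulators (0.02).

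Within a tissue the question was whether the mother's diet, the challenge or both together changed these genes. None of the measured genes was called in any comparison of MUN with CON or of HFCS with chow, in any tissue, with or without the arrays out of line. The ordinary F-test without moderation also called 0 of them. The MUN and CON ranges overlapped for every measured gene in every tissue on each diet. At an unadjusted p under 0.05, 1 of the 6 genes measured in adipose differed, DGAT2 between MUN and CON on HFCS, and 0 of 6 in every other comparison of maternal group or diet. Few genes of any kind were called. In liver 0% of 8685 genes were called in all 6 of these comparisons. In muscle 0.0745% of 8052 genes, 6 in number, were called for HFCS against chow in CON and 0% in the other 5. Without the muscle array out of line that share was 0.509%, or 41 genes, and the other 5 stayed at 0%. With the array of high ALB left out too, 4 genes were called for HFCS against chow in CON. In adipose 0.0216% of 9277 genes were called for MUN against CON on HFCS, 0.0108% for HFCS against chow over both maternal groups and 0% in the other 4.

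The share of all genes at an unadjusted p under 0.05 sets the scale for the single DGAT2 result. For MUN against CON on HFCS it was 2.58% in liver, 4.27% in muscle and 9.73% in adipose, and on chow it was 3.94% in liver, 7.34% in muscle and 3.51% in adipose. For HFCS against chow in MUN it was 9.78% in liver, 1.4% in muscle and 3.86% in adipose, and in CON 0.622% in liver, 13.3% in muscle and 7.58% in adipose. Over both maternal groups the diet comparison had 2.42% in liver, 5.27% in muscle and 7.73% in adipose, and the difference between the diet responses of MUN and CON had 3.32% in liver, 6.22% in muscle and 3.86% in adipose. With 9.73% of all adipose genes past that p, 1 of 6 is not a result about these genes as a group. Exact permutation tests over the animals, 108 in number over genes, tissues and comparisons, gave 0 results under 0.05, and the smallest was 0.0625. A p that misses its threshold does not show that groups were alike, so the differences are given with intervals of 2 SE to each side.

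**Figure D2:**
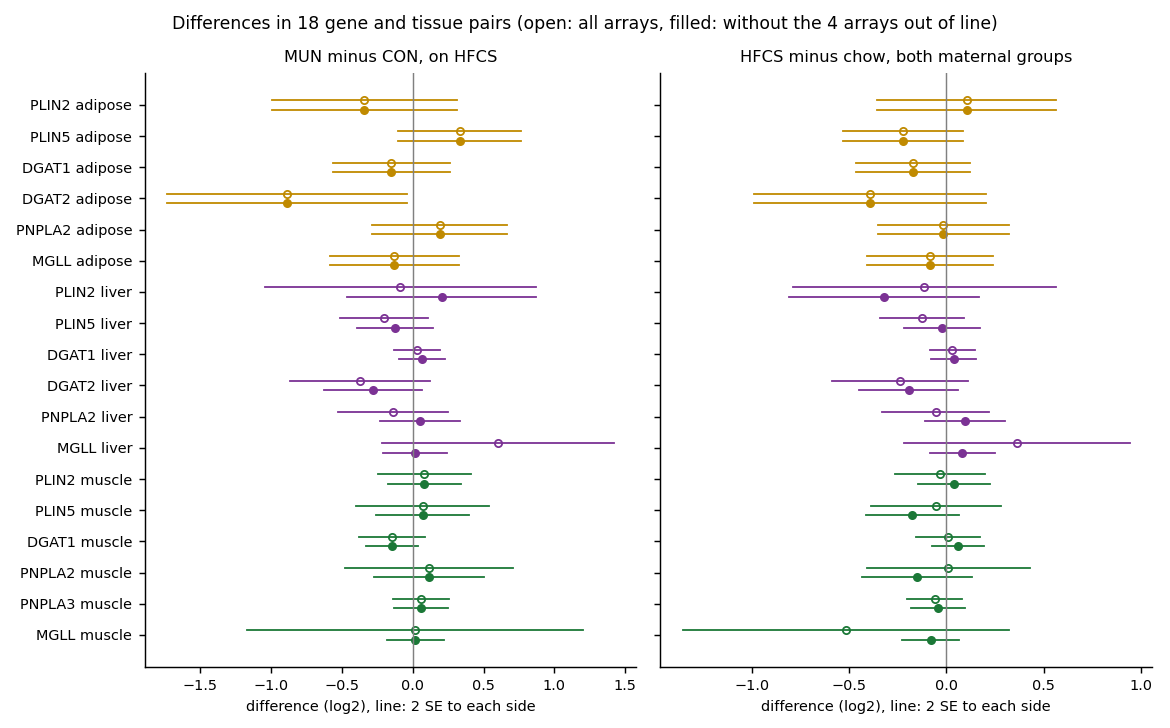
Differences of each measured gene in each tissue (log2, lines reach 2 SE to each side), with open symbols for all arrays and filled symbols without the 4 arrays out of line. The interval of DGAT2 in adipose for MUN minus CON on HFCS, -1.73 to -0.04, ends just below 0, and the wide MGLL intervals of liver and muscle with all arrays narrow around 0 without the arrays out of line.

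In adipose the coat genes did not separate the groups. PLIN2 had a lowest, median and highest level of 8.47, 8.89 and 9.69 in MUN on HFCS, 8.16, 9.14 and 9.36 in MUN on chow, 8.08, 9.03 and 10.42 in CON on HFCS, and 8.73, 8.87 and 10.08 in CON on chow. The 3 highest PLIN2 levels were those of CON replicate 2 on each diet and CON replicate 3 on HFCS, and the 4 medians lay close together. MUN minus CON was -0.34 on HFCS (SE 0.33, interval -0.99 to 0.31) and -0.17 on chow (SE 0.33), and HFCS minus chow was 0.02 in MUN and 0.19 in CON. PLIN5 ran from 9.19 to 9.92 with a median of 9.66 in MUN on HFCS, from 8.89 to 10.31 (median 9.87) in MUN on chow, from 8.51 to 9.79 (9.45) in CON on HFCS and from 9.29 to 9.83 (9.52) in CON on chow. The MUN medians of PLIN5 were above the CON medians on each diet, but 1 MUN animal on chow was below all CON animals on that diet. MUN minus CON was 0.33 on HFCS (SE 0.22, adjusted p = 0.66) and 0.21 on chow (SE 0.22, adjusted p = 1.00).

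DGAT2, the synthesis gene that varied most, was the 1 gene with an unadjusted p under 0.05. On HFCS its adipose levels were 7.39, 7.41, 7.90, 9.61, 7.71 and 7.56 in MUN animals, against 8.37, 9.89, 8.96, 8.68, 8.64 and 8.37 in CON animals. All but 1 of the 6 MUN animals were below every CON animal, and the sixth, male replicate 4, was above 5 of the 6 CON animals. The MUN minus CON difference on HFCS was -0.89 log2 units (SE 0.42, 0.54-fold, interval -1.73 to -0.04), with an unadjusted p of 0.046, an adjusted p of 0.50 from limma and p = 0.063 in the exact permutation test over animals. Without MUN replicate 4 it was -1.22, with an adjusted p of 0.27, and over 24 settings it lay between -1.57 and -0.67 and was called in 0. On chow the DGAT2 levels ran from 7.35 to 9.62 with a median of 8.39 in MUN and from 7.75 to 9.88 with a median of 9.12 in CON. There the groups were mixed, and MUN minus CON was -0.36 (SE 0.42, adjusted p = 1.00).

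The change of adipose DGAT2 in each animal, HFCS minus chow, had a lowest, median and highest value of -1.88, -0.56 and 0.06 in MUN, and of -1.45, -0.45 and 2.14 in CON. It was below 0 in 5 of 6 MUN animals, 1 of them by 0.01 only, and in 4 of 6 CON animals. HFCS minus chow was -0.66 in MUN (SE 0.42, interval -1.50 to 0.19, exact permutation p = 0.094) and -0.13 in CON (SE 0.42, interval -0.97 to 0.72), and the difference between these responses was -0.53 (SE 0.60, adjusted p = 1.00). The MUN minus CON difference of DGAT2 on HFCS was therefore not shown to differ from that on chow. Adipocyte markers were near each other in these groups, with a mean level of 9.22 to 9.62 in MUN on HFCS and of 9.17 to 9.86 in CON on HFCS. Macrophage markers ran from 8.87 to 9.18 in MUN on HFCS and from 8.70 to 9.68 in CON on HFCS, and their part in the DGAT2 values was not tested. DGAT1 in adipose ran from 8.19 to 8.89 (median 8.46) in MUN on HFCS, 8.28 to 9.51 (8.72) in MUN on chow, 8.16 to 9.27 (8.73) in CON on HFCS and 8.40 to 9.16 (8.73) in CON on chow. DGAT1 thus showed no such gap, with MUN minus CON of -0.15 on HFCS (SE 0.21) and 0.06 on chow (SE 0.21).

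**Figure D3:**
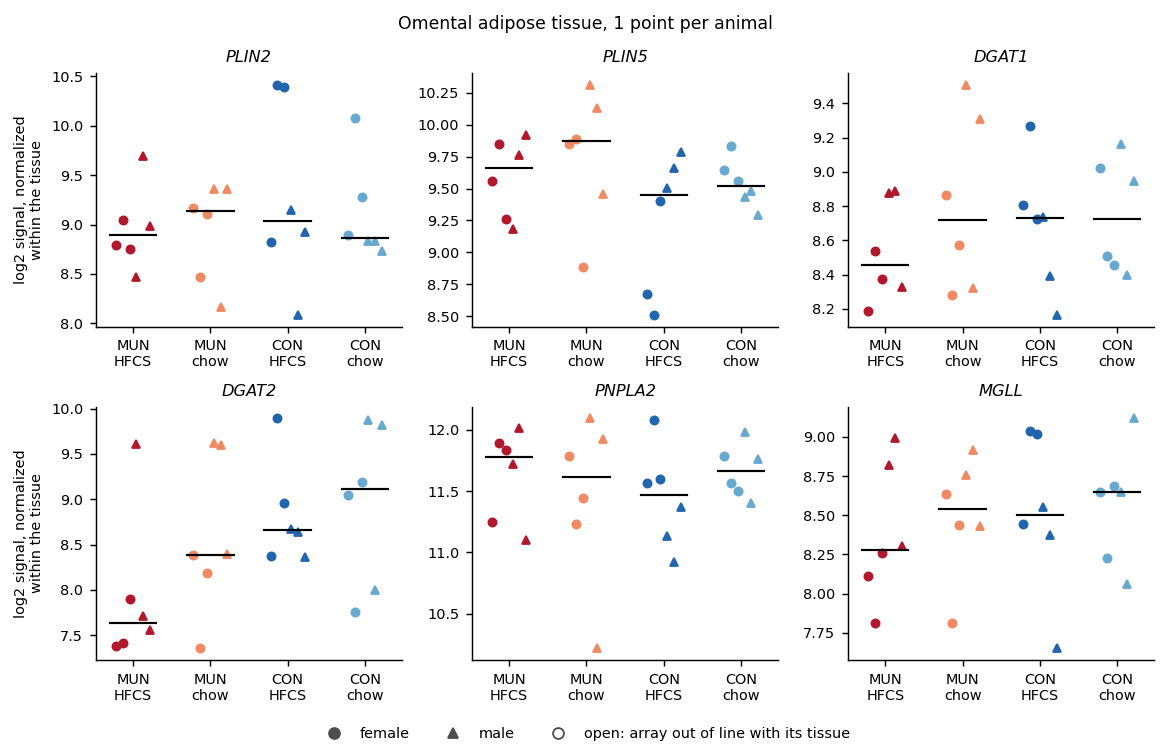
Adipose levels (log2 signal, normalized within the tissue) of the 6 measured genes in MUN on HFCS, MUN on chow, CON on HFCS and CON on chow, with 1 point for each animal. In the DGAT2 panel 5 MUN points on HFCS lie at or below 7.90 and 1 at 9.61, beside CON points from 8.37 to 9.89.

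The adipose lipases also overlapped. PNPLA2 ran from 11.10 to 12.02 (median 11.78) in MUN on HFCS, 10.22 to 12.10 (11.62) in MUN on chow, 10.92 to 12.08 (11.47) in CON on HFCS and 11.40 to 11.98 (11.66) in CON on chow. One MUN male, replicate 5, had the lowest level of all on chow and the second highest on HFCS, a change of 1.80. MUN minus CON for PNPLA2 was 0.19 on HFCS and -0.22 on chow (SE 0.24 each), and HFCS minus chow was 0.19 in MUN and -0.22 in CON, a difference of 0.41 (SE 0.34, interval -0.27 to 1.08). MGLL ran from 7.81 to 8.99 (8.28) in MUN on HFCS, 7.81 to 8.92 (8.54) in MUN on chow, 7.65 to 9.04 (8.50) in CON on HFCS and 8.06 to 9.12 (8.65) in CON on chow, and its differences were at most 0.13 in size (SE 0.23).

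In liver PLIN2 was the most variable of the genes, and the arrays out of line carried its apparent difference. Its levels had a lowest, median and highest value of 7.48, 8.95 and 10.04 in MUN on HFCS, 7.13, 9.34 and 9.63 in MUN on chow, 8.59, 8.79 and 10.18 in CON on HFCS, and 8.81, 9.15 and 10.81 in CON on chow. Without the arrays out of line the MUN levels were 8.52, 9.25 and 10.04 on HFCS (n = 5) and 9.26, 9.42 and 9.63 on chow (n = 4), within the CON ranges on chow and overlapping them on HFCS. MUN minus CON on chow was -0.74 (SE 0.48, adjusted p = 0.96) with all arrays and -0.03 (SE 0.36, interval -0.74 to 0.68) without them. On HFCS it was -0.09 (SE 0.48) and 0.20 (SE 0.33). HFCS minus chow in CON was -0.44 (SE 0.48 with all arrays), lower in 4 of 6 animals, and over both maternal groups -0.11 (SE 0.34) with all arrays and -0.32 (SE 0.24, interval -0.81 to 0.17) without those out of line.

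PLIN5 in liver had ranges of 7.54 to 8.32 (median 7.95) in MUN on HFCS, 7.78 to 8.79 (8.25) in MUN on chow, 7.86 to 8.37 (8.16) in CON on HFCS and 7.80 to 8.43 (8.02) in CON on chow. It was lower on HFCS in 4 of 6 MUN animals. HFCS minus chow in MUN was -0.32 (SE 0.15, interval -0.63 to -0.01, adjusted p = 0.51) with all arrays and -0.12 (SE 0.15, adjusted p = 1.00) without those out of line. The mean change of PLIN5 within the 4 MUN animals that had 2 in-line arrays was -0.19, with p = 0.38 in an exact permutation test that cannot go below 0.125 with 4 animals.

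Liver DGAT2 was 6.75, 7.28 and 7.48 (lowest, median, highest) in MUN on HFCS, 6.58, 7.62 and 8.59 in MUN on chow, 7.12, 7.63 and 8.18 in CON on HFCS, and 7.11, 7.70 and 8.06 in CON on chow. On HFCS 2 MUN animals, 1 of them with an array out of line, lay below every CON animal and the other 4 in the lower part of the CON range. MUN minus CON on HFCS was -0.37 (SE 0.25, exact permutation p = 0.076, adjusted p = 0.77 from limma) with all arrays and -0.28 (SE 0.17, interval -0.63 to 0.07) without those out of line. HFCS minus chow in MUN was -0.39 (SE 0.25) with all arrays and -0.31 (SE 0.19, interval -0.69 to 0.08) without, and DGAT2 was lower on HFCS in all 4 MUN animals with 2 in-line arrays, against 3 of 6 CON animals. The liver DGAT2 values thus had the sign of the adipose ones, and neither was called. DGAT1 varied little in liver, with all levels between 7.22 and 7.73 and differences of at most 0.09 in size with all arrays.

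Liver PNPLA2 ran from 6.90 to 8.17 (median 8.03) in MUN on HFCS, 7.44 to 8.53 (8.06) in MUN on chow, 7.82 to 8.24 (7.96) in CON on HFCS and 7.55 to 8.39 (7.82) in CON on chow. The lowest level was that of an array out of line. MUN minus CON was -0.14 on HFCS and 0.18 on chow (SE 0.20 each) with all arrays, and 0.05 on HFCS (SE 0.14, interval -0.23 to 0.33) and 0.07 on chow (SE 0.15) without those out of line. The normalized MGLL level was 10.76 on the HFCS array of MUN replicate 4, which was out of line, and 6.89 to 7.65 on all others. Its linear signal was not raised there, with at most 191.1 in MUN on HFCS, against up to 193.8 in CON on chow. The MUN minus CON difference of MGLL on HFCS was 0.60 (SE 0.41) with the array out of line and 0.02 (SE 0.11, interval -0.21 to 0.24) without.

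**Figure D4:**
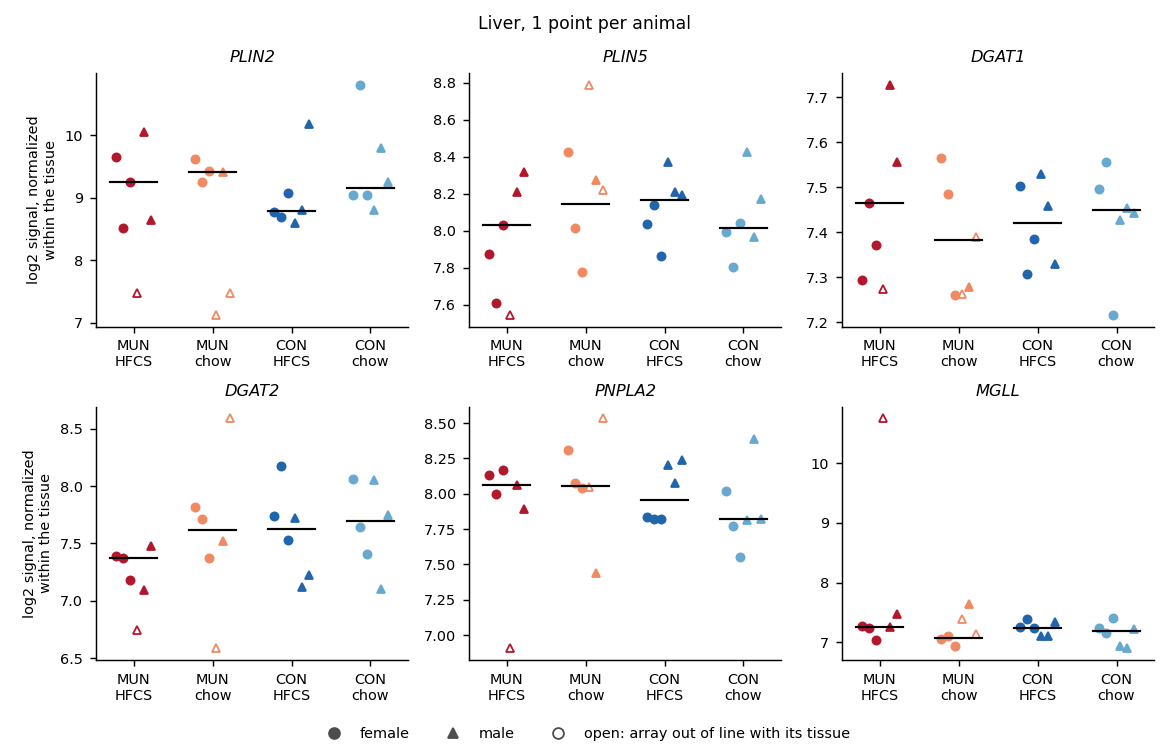
Liver levels (log2 signal, normalized within the tissue) of the 6 measured genes in MUN on HFCS, MUN on chow, CON on HFCS and CON on chow, with 1 point for each animal and the arrays out of line marked. The lowest PLIN2 points, 7.13 and 7.48, and the highest MGLL point, 10.76, come from arrays out of line.

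In muscle no gene separated the groups, and the array out of line moved several of the differences. PLIN2 ran from 7.64 to 8.32 (median 7.83) in MUN on HFCS, 7.75 to 8.04 (7.82) in MUN on chow, 7.26 to 8.00 (7.90) in CON on HFCS and 7.33 to 8.62 (7.88) in CON on chow. It was higher on HFCS in 5 of 5 CON animals with in-line arrays, by 0.03 to 0.54 with a mean of 0.16, which in the exact permutation test gives p = 0.0625, the smallest that 5 animals allow, and in 3 of 6 MUN animals. In the fit over groups HFCS minus chow for PLIN2 was 0.02 in MUN and -0.09 in CON (SE 0.16 each) with all arrays. Without the array out of line it was 0.06 in CON (SE 0.13), a value that still holds the HFCS array of the animal whose chow array was left out. PLIN5, the perilipin of oxidative tissue, ran from 8.24 to 9.05 (8.49) in MUN on HFCS, 8.29 to 9.03 (8.73) in MUN on chow, 8.06 to 8.72 (8.54) in CON on HFCS and 7.19 to 9.07 (8.57) in CON on chow. Its 4 medians lay close together, and HFCS minus chow over both maternal groups was -0.05 (SE 0.17) with all arrays and -0.18 (SE 0.12, interval -0.42 to 0.06) without the array out of line.

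Muscle PNPLA2 ran from 8.21 to 9.24 (8.99) in MUN on HFCS, 8.46 to 9.21 (9.00) in MUN on chow, 8.32 to 9.42 (8.73) in CON on HFCS and 7.13 to 9.34 (9.08) in CON on chow. HFCS minus chow in CON was 0.02 (SE 0.30) with all arrays and -0.30 (SE 0.20, interval -0.71 to 0.11) without the array out of line. In MUN it was 0.00 in either case. PNPLA2 was lower on HFCS in 3 of 6 MUN animals and in 4 of 5 CON animals with 2 in-line arrays, whose mean change was -0.22. The difference between the responses was -0.02 (SE 0.42) with all arrays and 0.30 (SE 0.28, adjusted p = 0.75) without the array out of line, and was called in neither. MGLL read 12.88 on the chow array of CON replicate 5, out of line, and 7.26 to 8.03 on all others. With that array MUN minus CON on chow was -0.89 (SE 0.59), and without it -0.02 (SE 0.11). DGAT1 and PNPLA3 stayed within 7.15 to 8.01 and 6.90 to 7.43, with differences of at most 0.15 and 0.16 in size.

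Females and males differed for a few of the genes at an unadjusted p, and for none after adjustment. PLIN5 in liver had a female minus male difference of -0.26 (SE 0.11, unadjusted p = 0.037, adjusted p = 0.52 from limma with the animal as a random block) with all arrays and -0.28 (adjusted p = 0.23) without those out of line. PNPLA2 in muscle averaged 9.09 in females and 8.56 in males, a difference of 0.52 (SE 0.19, unadjusted p = 0.014, adjusted p = 0.37) with all arrays and 0.38 (adjusted p = 0.18) without the array out of line, which came from a male. At an unadjusted p under 0.05 the counts were 1 of 6 genes in liver, 1 of 6 in muscle and 0 of 6 in adipose, beside 9.2%, 9.95% and 14.9% of all genes, and calls were made for 0.0345%, 0.124% and 0.808% of all genes, with 0.599% in liver and 0.758% in muscle without the arrays out of line. Without the array out of line the muscle count was 4 of 6, beside 14.2% of all genes. Those 4 were PNPLA2, PNPLA3 with 0.17, PLIN2 with 0.19 and MGLL with -0.16 (adjusted p = 0.18, 0.21, 0.32 and 0.27). In adipose DGAT2 was -0.50 (SE 0.28, adjusted p = 0.41), PLIN2 was 0.39 (SE 0.21, adjusted p = 0.41) and PLIN5 was -0.25 (SE 0.14, adjusted p = 0.40).

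The other pathway genes gave the same picture within tissues, with 0 genes of the 5 lists called for maternal group, diet or sex. The 2 genes of each list with the smallest unadjusted p are named here. Their muscle values are those of all arrays, and each involves CON on chow, the group with the muscle array out of line. How far that array carries them is not shown here. Among export and uptake genes, CD36, the fatty acid transporter, was 0.77 higher in muscle of MUN than of CON on chow (SE 0.20, adjusted p = 0.55), and the lipoprotein receptor gene VLDLR had a difference between diet responses of -0.83 in muscle (adjusted p = 0.55). Among synthesis genes, AGPAT1 had a MUN minus CON difference of 0.27 in adipose on HFCS (adjusted p = 0.27), and GPAM, which starts glycerolipid synthesis, had one of 0.80 in muscle on chow. Among lipases, CES1 had a MUN minus CON difference of -0.33 in adipose on chow (adjusted p = 1.00) and LIPE a difference between diet responses of 0.25 in muscle. FASN in adipose had an HFCS minus chow difference of -0.80 over both maternal groups (SE 0.27, unadjusted p = 0.0077, adjusted p = 0.57), and PPARGC1A, a coactivator of oxidative genes, one of -0.49 in MUN adipose. BSCL2, the seipin gene, had one of -0.43 in CON muscle, and HSD17B11, a droplet enzyme, a MUN minus CON difference of -0.29 in adipose on HFCS.

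All 6 droplet genes measured in adipose had a wider spread over arrays than most genes, and in liver and muscle some had. The arrays are those of both diets, 2 for each animal. All genes here means genes detected on at least 6 of 24 arrays, and without background subtraction the spread of dim genes is understated. The droplet genes of adipose were detected on every adipose array, and the part of brightness in these shares was not tested. The SD of the level over the 24 adipose arrays was 0.853 for DGAT2, more than that of 99.6% of all genes, and 0.598 for PLIN2, more than that of 98.8%. The other 4 had SDs of 0.376 to 0.434, above those of 94.6% to 96.5% of genes, where the median gene had 0.166. In liver PLIN2 had an SD of 0.589 over the 21 in-line arrays, more than 98.7% of genes, and DGAT2 0.321, more than 93.2%, whereas DGAT1 with 0.125 was below the median gene's 0.147. In muscle PNPLA2 varied most, with 0.356, more than 91.2% of genes, and PLIN5 and PLIN2 had more than 85.6% and 69.2%. Muscle PNPLA3, DGAT1 and MGLL had SDs of 0.157 to 0.170, below the median gene's 0.180. Whether an animal kept its place was read from its level on HFCS set against its level on chow, over 12 animals in adipose, 11 in muscle and 10 in liver with in-line arrays. Of 18 such relations of a gene in a tissue, 0 passed adjustment over the 18 in permutation tests. The closest was PLIN2 in muscle over 11 animals, with Spearman's rho of 0.79 (permutation p = 0.0054, adjusted 0.098) and Pearson's r of 0.49 (permutation p = 0.13, adjusted 0.53), which was 0.71 without the 2 farthest animals.

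In adipose DGAT2 and MGLL went up and down with lipogenic genes. The correlations are descriptions over 24 arrays that come as pairs from 12 animals, and the points share the tissue's normalization. THRSP, a lipogenic gene that responds to thyroid hormone and carbohydrate, was among the 2 genes most like DGAT2 in adipose, with Pearson's r of 0.86 and Spearman's rho of 0.84. The r for DGAT2 and THRSP was 0.88 with the means of the 4 groups removed, 0.84 over the means of the 12 animals and 0.84 without the 2 arrays farthest from the median. SCD, the desaturase gene, had r of 0.84 with DGAT2 (rho 0.82, 0.80 with group means removed), GPAM had 0.84 (rho 0.83, 0.80) and FASN had 0.67 (rho 0.68, 0.75), 3 genes of the lists that were picked after their values were seen. MGLL had r of 0.72 with DGAT2 and 0.82 with THRSP. The mean of the adipocyte markers had r of only 0.19 with DGAT2.

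The lipogenic genes had wide ranges on HFCS in adipose. SCD had a lowest, median and highest level of 6.86, 7.46 and 9.71 in MUN, against 8.08, 9.22 and 12.16 in CON, THRSP had 8.11, 9.38 and 11.18 in MUN, against 8.63, 9.74 and 11.95 in CON, and GPAM had 10.14, 11.07 and 12.63 in MUN, against 11.01, 11.77 and 13.21 in CON. MUN medians were the lower ones for these 3 genes. FASN went the other way, with 12.16, 12.82 and 13.31 in MUN, against 11.63, 12.64 and 14.01 in CON. Ranges overlapped for each of the 4 genes, and none was called.

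PNPLA2 and PLIN2 in adipose ran with the mean of the adipocyte markers instead. That list itself holds the droplet and triglyceride genes PLIN1, CIDEC, LIPE and GPD1. With these PNPLA2 had r of 0.64 to 0.74 and PLIN2 of 0.57 to 0.74, whereas the dim marker ADIPOQ had a weaker r with either gene. PNPLA2 had r of 0.82 with the adipocyte marker mean (rho 0.75, 0.86 with group means removed, 0.65 over animal means, 0.70 without the 2 farthest arrays) and of -0.62 with the mean of macrophage markers (rho -0.53). PLIN2 had r of 0.73 with the adipocyte markers (rho 0.73, 0.83 over animal means) and DGAT1 had 0.66 (rho 0.69). DGAT1 also ran with lipogenic genes, with r of 0.75 with FASN, 0.68 with THRSP and 0.54 with SCD. Its correlations with ELOVL6 and ACLY were weaker, and these partners were picked after their values were seen. With DGAT2 its r was 0.59 and with MGLL 0.61, so DGAT1 did not belong to the marker side alone. Fat cell content and the level per fat cell cannot be separated in these values. Some single droplet genes behaved likewise, with r of 0.80 for PNPLA2 and CIDEA, 0.74 for PNPLA2 and PLIN1, which is itself on the marker list, and 0.69 for PNPLA2 and DGAT1. The coat gene PLIN5 went the other way, with r of -0.42 with the adipocyte marker mean and -0.29 with PNPLA2.

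**Figure D5:**
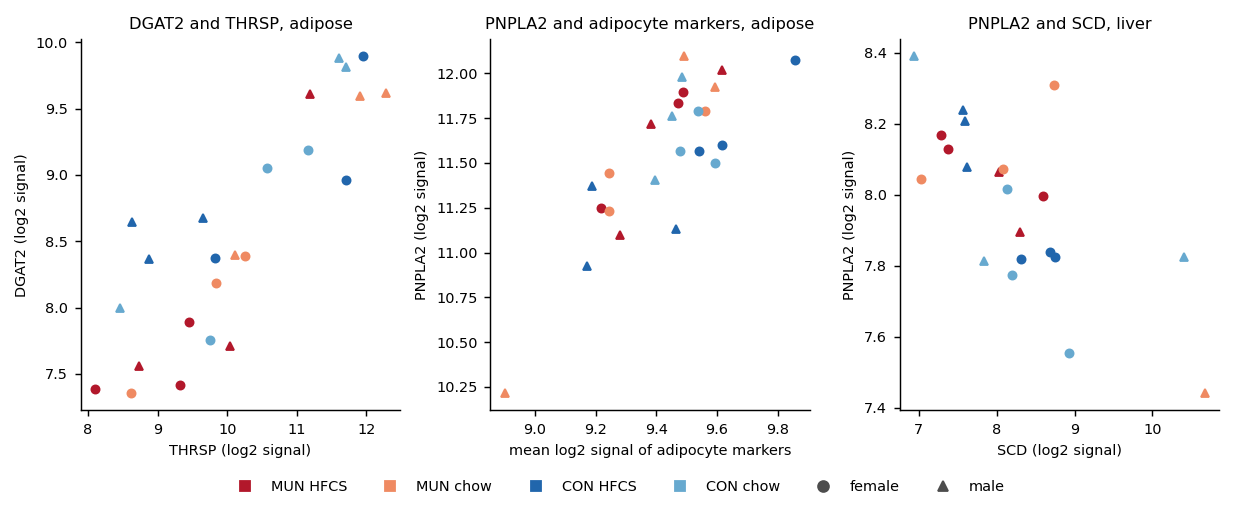
Levels (log2 signal) of DGAT2 against THRSP in adipose, of PNPLA2 against the mean of the adipocyte markers in adipose and of PNPLA2 against SCD in liver, with 1 point for each in-line array, coloured by maternal group and diet. The first 2 panels rise (r of 0.86 and 0.82 over 24 arrays) and the third falls (r of -0.70 over 21 arrays).

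In liver PNPLA2 ran against several lipogenic genes. Over 21 in-line arrays of 11 animals its r was -0.70 with SCD (rho -0.67, -0.70 with group means removed, -0.68 over animal means, -0.61 without the 2 farthest arrays) and -0.71 with FASN (rho -0.67). With ACADVL, a gene of fatty acid oxidation, r was 0.71 (rho 0.74), and with CPT1A, the gate of fatty acids into mitochondria, 0.66 (rho 0.70). Not all genes of that list followed this split, since the lipogenic regulator MLXIPL had r of 0.60 with PNPLA2 (rho 0.53), and PPARA and PDK4, from the oxidative side, had 0.18 and 0.01. The mean of the hepatocyte markers had r of 0.02 with PNPLA2, and the number of detected probes had -0.37. PLIN2 in liver had r of 0.60 with CPT1A (rho 0.56) and -0.65 with LIPA (rho -0.65). These partner genes were also picked from the lists after their values were seen.

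The 2 genes most like each measured gene, by Pearson's r over the in-line arrays of a tissue, were as follows. In adipose PLIN2 had UBR2 (0.83) and VKORC1L1 (0.82), PLIN5 had KHSRP (0.78) and WASH7P (0.74), and DGAT1 had COQ3 (0.90) and TSPO (0.89). Adipose DGAT2 had BOLA3 (0.89) beside THRSP, PNPLA2 had SIK2 (0.88) and ETFB (0.84), and MGLL had RNASE2 and THRSP (0.82 each). In liver PLIN2 had METRNL (0.77) and DUSP8 (0.74), PLIN5 had DCAF6 (0.78) and CRCP (0.71), and DGAT1 had UQCRC1 (0.71) and RETREG1 (0.70). Liver DGAT2 had RUSF1 (0.82) and BMPR2 (0.81), PNPLA2 had PLEKHM2 (0.81) and RNPEP (0.80), and MGLL had KLHL29 (0.83) and OSBPL5 (0.81). In muscle PLIN2 had ATP1B1 (0.75) and LMCD1 (0.74), PLIN5 had ABHD8 (0.73) and RHBDL2 (0.69), and DGAT1 had DCAF10 (0.74) and ZNF830 (0.70). Muscle PNPLA2 had NDUFA7 (0.79) and EEF1D (0.78), PNPLA3 had SH2D1A (0.74) and MRPS2 (0.71), and MGLL had CNFN (0.79) and BCR (0.75). No gene stood in these lists for the same droplet gene in 2 tissues.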

How the data were processed

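RNA of 72 biopsies was hybridised to Illumina HumanHT-12 v4 arrays. The intensity values used here are linear probe signals that the authors exported from GenomeStudio and deposited without normalization. The deposited detection score beside each signal, which nears 1 above background, came from the same export. The authors' series value table held intensity values after quantile normalization, not log transformed, and served as an alternative. The study's own tests were made in Partek, and versions are not given in the sources used here. The precision is limited by the number of arrays.

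A probe was kept in a tissue if at least 6 of its 24 arrays had a score above 0.95. Signals were put on the log2 scale and quantile normalized within the tissue (over 72 arrays for comparisons between tissues), and the brightest kept probe of a gene was used, of probes with 1 symbol. limma 3.58.1 in R 4.3.3 with statmod 1.5.0 fitted the group means, adjusted over all genes of the tissue (8685 in liver, 8052 in muscle, 9277 in adipose). Sex and tissue comparisons had the animal as a random block. In those, leave-one-animal-out fits kept the within-animal correlation of the fit on all arrays (0.127 in liver, 0.0502 in muscle, 0.0552 in adipose and 0.0251 over all tissues). Exact two-sided permutation tests used the animals. Figures were drawn with matplotlib 3.10.9. Fits were tested on simulated data.

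The genes and lists were chosen with earlier results of these data known. The text names the 9 genes, up to 4 called genes of each list and direction by smallest p, or the 2 with the smallest unadjusted p where none was called, the 2 most similar genes of each, and markers that moved with them. Genes named outside that rule are said to be so. By the labels each animal was sampled on chow and on HFCS, so arrays pair by animal, matched through the numbers in the labels. Deviations of the same animal's arrays had a median correlation of 0.368 in liver (over 0.1 in 11 of 12 animals), 0.176 in muscle (7 of 12) and 0.203 in adipose (9 of 12). The study's methods name no pairing, so a fit with the animal as a block is given as an alternative. Others were normexp background correction, other filters and normalizations, array weights, an ordinary F-test, sex as a term, other probes, leaving out each animal and leaving out arrays whose median correlation with their tissue was under 0.9.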

Additional observations from a re-analysis of the deposited data

Results flagged for a closer look

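Each measured gene was scanned in each group of its tissue, 72 sets of 6 arrays from the same 12 animals, and in 6 sets 1 animal lay far from the rest. The threshold used is one that chance passes in about 1 of 20 sets. In adipose, DGAT2 of MUN replicate 4 on HFCS was 9.61, and the nearest animal of its group had 7.90. In liver, PLIN2 of CON replicate 6 on HFCS was 10.18, beside 9.08 for the next animal. Both of these were in-line arrays. The other 4 came from arrays that were out of line. The liver array of MUN replicate 4 on HFCS had normalized levels of 6.90 for PNPLA2 (nearest 7.89) and 10.76 for MGLL (nearest 7.48). The muscle array of CON replicate 5 on chow read PNPLA2 at 7.13 (nearest 8.58) and MGLL at 12.88 (nearest 8.03).

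For G0S2 in muscle and PLIN3 in adipose, both at background, isolated detections appeared that no in-line array of CON on chow had. G0S2 was detected on 1 in-line muscle array, that of CON replicate 4 on HFCS, with a linear signal of 150.9. In-line muscle arrays without a detection had G0S2 signals of up to 170.1, so the signal itself was not the highest. PLIN3 was detected on adipose arrays of CON replicate 5 on HFCS, with 205.8, and of MUN replicate 2 on chow, with 162.5. No difference between the diet responses of MUN and CON passed its test for any measured gene.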

How the results depend on the processing

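Within tissues, 3055 values of the measured genes under the alternatives gave 0 calls, as with the values first given, while 209 changed sign without being called, so directions of small differences are not settled. With the animal as a replicate block the count of called genes stayed at 0 of 6 in each tissue and comparison, as it did when each animal was left out in turn. Over all genes, the block moved the HFCS against chow count in CON muscle to 0, against 6 without it (41 without the array out of line, 4 without the array of high ALB as well, 34 with sex as a term too, 11 with array weights, 0 to 4 leaving out an animal), and that of adipose over both maternal groups to 0, against 1. Between tissues, 342 of 357 values kept their side of the threshold, 9 gained a call and 6 lost one. No call reversed, and 3 values changed sign without being called, all of PNPLA3 for adipose against liver (up to 0.07, against -0.04). Without the replicate block the counts of called genes were 3, 6 and 5 of 7 for liver against muscle, adipose against liver and adipose against muscle, as with it. The counts against muscle again held DGAT2, which was at background there. Leaving out 1 animal gave 3 to 5, 5 to 6 and 5 to 6, with 5 for liver against muscle without MUN replicate 4, where PLIN5 (-0.26) and MGLL (-0.44) were added. PLIN5 for liver against muscle was also called without CON replicate 5 and without MUN replicate 6 (-0.30 and -0.27). MGLL for adipose against muscle was called with median centring only (0.68) and without CON replicate 5 (0.48), and DGAT1 for liver against muscle with normexp (0.46). MGLL for adipose against liver lost its call without MUN replicate 1, 3, 5 or 6 or CON replicate 4 (0.48 to 0.52). Counts over all genes also moved for females against males, with 3 in liver, and 1 to 319 in the alternatives (319 without MUN replicate 5), and with 10 in muscle, and 3 to 61 in the alternatives, and between tissues, where 5807, 5389 and 4364 genes became up to 7623, 7265 and 5974. The cause was not tested. Signals were used without background subtraction, which understates differences of dim genes such as DGAT1 in muscle.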
